A study of Mus musculus with 18 samples.

Results

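The genes described here are 10 components of MHC class I antigen presentation, chosen by function: the classical heavy chains H2-K1 and H2-D1, the light chain B2m, the peptide transporter subunits Tap1 and Tap2, the loading chaperone Tapbp, the immunoproteasome subunits Psmb8, Psmb9 and Psmb10, and the transactivator Nlrc5. They are 10 of the 35976 gene symbols counted in the series, and all 10 passed the filter on low counts that left 15072 genes for testing. Polyadenylated RNA was counted in 18 libraries from 4T1 cells, a BALB/c mammary carcinoma line that the labels describe as triple-negative. The cells carried a non-silencing hairpin (NSi, the control) or a hairpin against Dap5 (shDap5), whose gene is Eif4g2. Both arms were induced with doxycycline at 2 µg/ml for 6 days, so the controls received the drug as well. RNA was taken from input, from light polysomes and from heavy polysomes of sucrose gradients, with 3 libraries in each of the 6 groups. The labels do not say whether an arm is a clone or a pool, nor whether replicate libraries stem from different cultures. The p-values therefore speak only of library-to-library spread, part of which may be technical.

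Class I molecules carry short peptides from the cell's own proteins to its surface, where CD8+ T cells read them. The immunoproteasome cuts proteins into peptides, the TAP transporter moves these into the endoplasmic reticulum, and tapasin (the product of Tapbp) holds the transporter beside an empty heavy chain and B2m until a peptide has bound. Interferons raise transcription of most of these genes, and NLRC5 acts as a coactivator at class I promoters together with factors that bind upstream elements such as the CCAAT-like Y box, while many carcinoma cells keep the pathway low.

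The regions just upstream of 6 of the genes are shown first. H2-K1 and H2-D1 are included because their levels ran together across the libraries, Tap1 and Psmb9 because they leave a common interval in opposite directions, Psmb8 because it fell in shDap5 cells, and B2m as the partner of the heavy chains. The sequences are from RefSeq in build GRCm38.p6, not in mm9, the build the authors used, and 8 of the 10 members matched an entry (2 starts for H2-K1). Tap2 and Nlrc5 are named only. Each stretch is written 5′ to 3′, with matches to the searched motifs in capitals. The H2-K1 stretch is chr17:34000334-34000583 on the minus strand and the H2-D1 stretch is chr17:35262844-35263093 on the plus strand. The B2m stretch is chr2:122147437-122147686 on the plus strand, and the Psmb8 stretch is chr17:34197945-34198194 on the plus strand. Each of these holds the 250 bases before the start of transcription. The fifth stretch, chr17:34187331-34187555 on the plus strand, is the whole 225 bases between the start of Psmb9, which runs to the left, and the start of Tap1, which runs to the right.
H2-K1: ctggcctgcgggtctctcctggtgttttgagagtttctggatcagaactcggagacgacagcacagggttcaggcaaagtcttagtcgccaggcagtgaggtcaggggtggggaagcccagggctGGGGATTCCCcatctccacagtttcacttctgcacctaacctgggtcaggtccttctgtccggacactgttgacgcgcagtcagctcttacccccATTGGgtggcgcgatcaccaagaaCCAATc
H2-D1: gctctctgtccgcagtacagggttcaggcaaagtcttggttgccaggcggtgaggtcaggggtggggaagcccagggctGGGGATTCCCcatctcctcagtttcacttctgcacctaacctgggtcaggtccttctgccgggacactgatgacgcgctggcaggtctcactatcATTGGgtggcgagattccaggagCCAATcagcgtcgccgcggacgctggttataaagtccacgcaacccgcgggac
B2m: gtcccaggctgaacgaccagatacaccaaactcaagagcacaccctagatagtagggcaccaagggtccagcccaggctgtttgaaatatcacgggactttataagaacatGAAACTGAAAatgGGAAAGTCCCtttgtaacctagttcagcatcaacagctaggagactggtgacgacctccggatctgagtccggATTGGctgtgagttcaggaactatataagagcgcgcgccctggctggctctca
Psmb8: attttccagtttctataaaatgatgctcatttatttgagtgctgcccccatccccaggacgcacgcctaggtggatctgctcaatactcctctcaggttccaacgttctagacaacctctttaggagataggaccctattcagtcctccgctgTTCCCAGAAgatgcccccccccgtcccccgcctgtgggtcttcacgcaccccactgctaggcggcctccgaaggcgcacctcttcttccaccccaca
Psmb9 to Tap1: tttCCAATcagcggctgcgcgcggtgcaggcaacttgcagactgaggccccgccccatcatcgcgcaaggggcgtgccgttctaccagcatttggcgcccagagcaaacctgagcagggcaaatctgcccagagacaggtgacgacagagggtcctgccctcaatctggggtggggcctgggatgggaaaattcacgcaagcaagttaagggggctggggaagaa

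Motifs were searched on both strands of 300-base windows (250 before the start, 50 after), and a match is a description of the letters only. The kappaB motif (GGG, any 2 bases, TT, any base, CC) was found in H2-K1, H2-D1 and B2m, 3 of the 8 members, and in 4.79% of all 32851 promoters. In H2-K1 and H2-D1 it read GGGGATTCCC inside a run of 47 bases that is identical in both genes (bases 96 to 142 of the H2-K1 stretch and 50 to 96 of the H2-D1 stretch). The Y box CCAAT was found in 6 of the 8, against 37.4% of all promoters; the matches of Tap1 and Psmb9 are 1 and the same CCAAT in their common interval. The interferon-stimulated response element was searched as GAAA, any 2 bases, GAAA. An exact match was found in B2m, 1 of the 8, against 3.44% of all promoters. In B2m it read GAAACTGAAA and lay next to the kappaB match GGAAAGTCCC without overlapping it. Looser forms of the element were not searched for, so the other members cannot be said to lack it. The gamma-activated sequence motif TTCNNNGAA was found in Psmb8, 1 of the 8, against 8.3% of all promoters, as TTCCCAGAA. No motif overlapped another in the printed stretches. In GENCODE M21, B2m lies on chromosome 2, Psmb10 and Nlrc5 on chromosome 8, and the other members on chromosome 17, where the major histocompatibility complex is.

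Eif4g2 was lower in every shDap5 library than in every NSi library of its fraction. The unit of all levels below is TMM-scaled CPM, each gene's count set against the library's total times its TMM factor. Replicates 1 to 3 are given in order here and below. Eif4g2 stood at 799, 760 and 852 in NSi input and at 592, 340 and 671 in shDap5 input. The log2 change was −0.59 (SE 0.255, edgeR adjusted p = 0.202) in input, −1.60 (SE 0.261, edgeR adjusted p = 0.00204) on light and −1.45 (SE 0.26, edgeR adjusted p = 0.00349) on heavy polysomes. Library totals lay between 30385863 and 71331978 counts, so even Psmb9 had 300 or more counts in each NSi input. In the shDap5 inputs Psmb9 had 289, 558 and 139 counts. Markers of mammary carcinoma moved with the arm. Of 9 tested, 4 rose in input, 5 on light and 3 on heavy polysomes and 0 fell (edgeR). All 9 lay above 0 in each fraction (input median 0.57 on the log2 scale). Over all genes tested, 3.01%, 1.83% and 2.03% rose in input, light and heavy polysomes. In input Epcam rose (204 to 234 CPM in NSi against 397 to 451 in shDap5), as did Krt14 (6.54 to 8.42 against 30.4 to 44.3). The receptors Esr1 (12.1 to 14.5 CPM against 19.1 to 24) and Erbb2 (58.3 to 60.7 against 86.2 to 96.1) rose as well, and Pgr had 0 counts in all 18 libraries. The part of this shift in the changes of the class I genes was not tested. The library labelled shDap5 input replicate 2 stood apart: it had the lowest Eif4g2 of the inputs, and all 10 members lay above their group mean in it, against 1 in replicate 1 and 0 in replicate 3. Leaving it out, the input change of Eif4g2 was −0.35 (SE 0.248, edgeR adjusted p = 0.419), and the values of the members without it are given beside their input results.

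Against NSi, shDap5 cells held less mRNA for a part of the pathway. In input, Psmb8 and Nlrc5 fell, 2 of the 10 members, and 0 rose (edgeR, adjusted p under 0.05 over all 15072 genes); over all genes tested, 6.95% were called, 3.94% lower and 3.01% higher. The 3 shDap5 inputs lay below the 3 NSi inputs for 5 members (H2-K1, H2-D1, B2m, Psmb8 and Nlrc5), a pattern held by 16.9% of all genes tested. On light polysomes 0 of 10 were called (3.47% of all genes, 1.83% higher and 1.64% lower), and 2 members, Psmb8 and Nlrc5, were lower without overlap (9.64% of all genes). On heavy polysomes 0 of 10 were called (3.95% of all genes, 2.03% higher and 1.92% lower), and 3 members, H2-K1, Psmb8 and Nlrc5, were lower without overlap (8.11% of all genes). At an unadjusted p under 0.05 the edgeR test had 5 members in input, 3 on light and 2 on heavy polysomes, beside 2945, 2428 and 2585 of all genes, and DESeq2 called 5, 1 and 1 members (10.3%, 6.61% and 6.97% of all genes). The median log2 change of the members was −0.32 in input, −0.03 on light and −0.23 on heavy polysomes, where that of all genes tested was 0.05, −0.02 and 0.01. Without shDap5 input replicate 2 the input median of the members was −0.69, beside 0.06 for all genes. In bulk RNA, fewer cells that express a gene and less of its RNA per cell cannot be told apart.

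**Figure D1:**
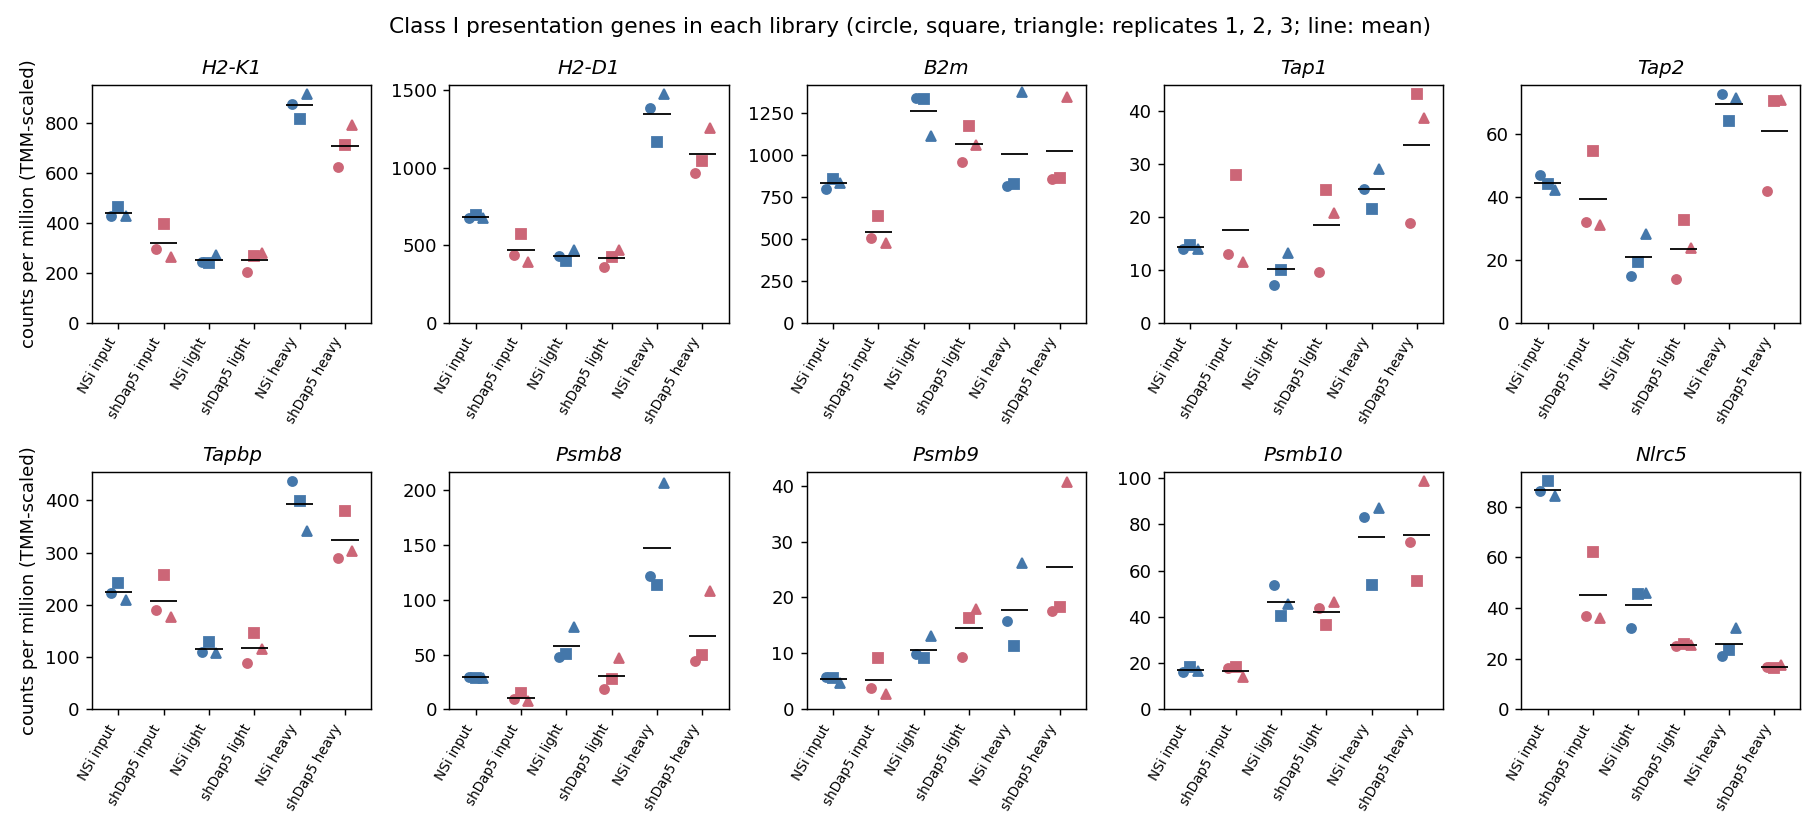
TMM-scaled CPM (y axis, from 0) of the 10 class I presentation genes in each of the 18 libraries, by arm and fraction (x axis), with circles, squares and triangles for replicates 1, 2 and 3 and a line at the mean of 3. Psmb8 and Nlrc5 lay lower in all 3 shDap5 libraries than in all 3 NSi libraries of every fraction, and the square of shDap5 input lay above its group mean in all 10 genes.

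H2-K1 and H2-D1 encode the heavy chains that bind the peptide. H2-K1 stood at 429, 464 and 428 CPM in NSi input and at 295, 397 and 262 in shDap5 input. The arms did not overlap, and shDap5 replicate 2 lay nearest to the controls. The log2 change of −0.47 (SE 0.169, edgeR adjusted p = 0.11) did not pass; without that library it was −0.66 (adjusted p = 0.0178). H2-D1 stood at 677, 693 and 673 CPM in NSi input and at 434, 569 and 393 in shDap5 input, with the same order of libraries and again no overlap. Its log2 change was −0.55 (SE 0.171, edgeR adjusted p = 0.0622), and −0.72 (adjusted p = 0.0141) without replicate 2.

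On light polysomes the arms were mixed for both heavy chains. H2-K1 stood at 242, 241 and 270 CPM in NSi and at 205, 267 and 280 in shDap5 light polysomes. H2-D1 stood at 429, 396 and 468 CPM in NSi and at 359, 422 and 469 in shDap5. Only shDap5 replicate 1 lay below all controls, and the log2 changes were −0.0014 for H2-K1 (SE 0.168, edgeR adjusted p = 0.998) and −0.05 for H2-D1 (SE 0.17, edgeR adjusted p = 0.934).

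On heavy polysomes H2-K1 stood at 879, 817 and 918 CPM in NSi and at 623, 713 and 794 in shDap5, without overlap but with a gap smaller than the spread inside either arm. H2-D1 stood at 1387, 1166 and 1478 CPM in NSi and at 965, 1042 and 1256 in shDap5, where the highest shDap5 library passed the lowest control. The log2 change was −0.30 for each (SE 0.168 and edgeR adjusted p = 0.398 for H2-K1, SE 0.17 and edgeR adjusted p = 0.387 for H2-D1).

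Reads can be shared among class I heavy chains, because the genes are near-identical copies in parts, and the treatment of such reads is not given in the sources used here. In GENCODE M21 transcripts, 8.8% of the 50-base windows of H2-K1 and 14.3% of those of H2-D1 also occurred in transcripts of other genes, against 0% for B2m, Psmb8, Psmb9, Psmb10 and Nlrc5. BALB/c mice carry the H-2d haplotype and the reference genome is of C57BL/6J mice, so reads over differing bases may have been lost; this was not tested. The counts of 16 heavy chain symbols were therefore also added into 1 value per library, of which H2-K1 and H2-D1 made up 67.5 to 76.6%. The sum stood at 1529, 1602 and 1507 CPM in NSi input and at 1056, 1423 and 948 in shDap5 input, with no overlap, and its log2 change was −0.44 (SE 0.181, edgeR adjusted p = 0.179). The ratio of H2-K1 to H2-D1 was 0.635, 0.67 and 0.636 in NSi input and 0.68, 0.697 and 0.666 in shDap5 input, so the arms overlapped in it.

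B2m encodes the small light chain that every class I heavy chain needs to leave the endoplasmic reticulum. It stood at 797, 858 and 833 CPM in NSi input and at 504, 637 and 474 in shDap5 input. All 3 shDap5 inputs lay below the controls, and the arms differed by −0.62 on the log2 scale (SE 0.218, edgeR adjusted p = 0.101), and by −0.76 (adjusted p = 0.053) without replicate 2. On light polysomes it stood at 1339, 1330 and 1110 CPM in NSi and at 954, 1172 and 1059 in shDap5, where 1 shDap5 library lay above the lowest control (log2 change −0.25, SE 0.218, edgeR adjusted p = 0.655). On heavy polysomes the arms could hardly be set apart, at 812, 828 and 1371 CPM in NSi and 855, 862 and 1344 in shDap5. Replicate 3 was the highest of both arms there, and the log2 change was 0.02 (SE 0.218, edgeR adjusted p = 0.974).

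Tap1 and Tap2 encode the subunits of the peptide transporter. Tap1 stood at 14, 14.7 and 13.9 CPM in NSi input and at 13.1, 27.8 and 11.4 in shDap5 input, so that replicate 2 alone lay above the controls. On light polysomes Tap1 stood at 7.05, 9.99 and 13.2 CPM in NSi and at 9.54, 25.1 and 20.8 in shDap5. On heavy polysomes it stood at 25.2, 21.5 and 29 CPM in NSi and at 18.8, 43.1 and 38.7 in shDap5. Replicates 2 and 3 of shDap5 lay above all controls on both kinds of polysomes and replicate 1 did not, and the log2 changes of 0.30, 0.87 and 0.41 in input, light and heavy polysomes (SE 0.366, 0.373 and 0.366) had edgeR adjusted p-values of 0.737, 0.242 and 0.624. The sign in input turned without shDap5 input replicate 2, to −0.21 (SE 0.36, edgeR adjusted p = 0.768).

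Tap2 showed no separation of the arms in any fraction. It stood at 46.8, 44.1 and 42.1 CPM in NSi input and at 32, 54.5 and 30.9 in shDap5 input. On light polysomes it stood at 14.7, 19.2 and 28.2 CPM in NSi and at 13.7, 32.5 and 23.8 in shDap5, each arm spanning about the same range. On heavy polysomes it stood at 72.6, 64.1 and 71.5 CPM in NSi and at 41.7, 70.4 and 70.7 in shDap5, where replicate 1 alone was low. Its log2 changes were −0.18 in input (SE 0.292, edgeR adjusted p = 0.812; −0.49, adjusted p = 0.343 without replicate 2), 0.17 on light (SE 0.295, edgeR adjusted p = 0.851) and −0.19 on heavy polysomes (SE 0.292, edgeR adjusted p = 0.805). Tapbp, the loading chaperone, stood at 222, 242 and 210 CPM in NSi input and at 190, 257 and 176 in shDap5 input, with replicate 2 of shDap5 the highest of the 6. On light polysomes Tapbp stood at 109, 129 and 108 CPM in NSi and at 89.4, 146 and 115 in shDap5, with the controls inside the range of shDap5. On heavy polysomes it stood at 437, 399 and 342 CPM in NSi and at 290, 379 and 303 in shDap5, so 1 shDap5 library lay above the lowest control. The edgeR adjusted p of Tapbp was 0.814, 0.983 and 0.495 in input, light and heavy polysomes, at log2 changes of −0.11, 0.01 and −0.28 (SE 0.188 in each). The input value became −0.29 (adjusted p = 0.381) without replicate 2.

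Psmb8, Psmb9 and Psmb10 encode the catalytic subunits that replace Psmb5, Psmb6 and Psmb7 when a proteasome becomes an immunoproteasome, and they did not move as a unit. Psmb8 stood at 30, 28.8 and 28.7 CPM in NSi input and at 9.05, 14.6 and 7.19 in shDap5 input. The highest shDap5 library lay far below the lowest control, at 50.8% of the control of its number, with replicates 1 and 3 at 30.2% and 25.1%. Psmb8 thus fell by 1.5 on the log2 scale in input (SE 0.369, edgeR adjusted p = 0.0177), the largest change among the members. Without shDap5 input replicate 2 it was −1.84 (adjusted p = 0.00871). The call was lost when NSi replicate 1, NSi replicate 2 or shDap5 replicate 1 was left out (edgeR adjusted p = 0.0824, 0.0629 and 0.069) and without the low-count filter (0.0938).

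On light polysomes Psmb8 stood at 47.9, 50.9 and 75 CPM in NSi and at 18.6, 27.4 and 46.5 in shDap5. On heavy polysomes it stood at 122, 114 and 207 CPM in NSi and at 44.4, 50.1 and 108 in shDap5. Each arm had its highest value in replicate 3, and no shDap5 library reached a control. The log2 changes were −0.91 on light (SE 0.363, edgeR adjusted p = 0.204) and −1.13 on heavy polysomes (SE 0.362, edgeR adjusted p = 0.0976), and without shDap5 replicate 3 they became −1.33 (adjusted p = 0.0308) and −1.64 (adjusted p = 0.0089).

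Psmb9 stood at 5.74, 5.64 and 4.67 CPM in NSi input and at 3.8, 9.13 and 2.67 in shDap5 input, with shDap5 replicate 2 above and the other two below all controls. On light polysomes it stood at 9.87, 9.09 and 13.1 CPM in NSi and at 9.33, 16.4 and 18 in shDap5. On heavy polysomes it stood at 15.9, 11.3 and 26.2 CPM in NSi and at 17.5, 18.3 and 40.6 in shDap5. In every fraction the arms overlapped, with log2 changes of −0.04, 0.45 and 0.52 (SE 0.416, 0.414 and 0.411) and edgeR adjusted p-values of 0.977, 0.673 and 0.569. The input value became −0.72 (adjusted p = 0.278) without replicate 2. Psmb9 and Tap1, which start from the printed 225-base interval, had the same order of shDap5-to-NSi ratios over the 3 numbers in every fraction. In input, light and heavy polysomes shDap5 replicate 2 was at 162%, 180% and 162% of its control for Psmb9. For Tap1 it was at 189%, 251% and 201%, the highest of the 3 numbers each time for both genes. This order was not particular to the pair: H2-K1, H2-D1 and Tapbp had the same order in every fraction. Tap2 also had replicate 2 the highest in each.

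Psmb10 stood at 16.3, 18.4 and 16.5 CPM in NSi input and at 18, 18.2 and 14.1 in shDap5 input. On light polysomes it stood at 53.9, 40.3 and 45.5 CPM in NSi and at 43.9, 36.3 and 46.4 in shDap5. Heavy polysomes held Psmb10 at 83.3, 53.9 and 87.1 CPM in NSi and at 72.3, 55.4 and 98.6 in shDap5, with replicate 2 the lowest of both arms. The arms overlapped in every fraction, and the log2 changes were −0.02, −0.14 and 0.01 in input, light and heavy polysomes (SE 0.21, 0.209 and 0.209, edgeR adjusted p = 0.976, 0.821 and 0.986; −0.08 in input without replicate 2). The constitutive partner of Psmb8, Psmb5, stood at 14, 14.5 and 14.8 CPM in NSi input and at 12.7, 12.2 and 13.6 in shDap5 input. Its shDap5 libraries lay just below the controls, as for 16.9% of all genes tested, and it was not called. Psmb6 (87.9 to 95.9 CPM in NSi input against 78.7 to 99.6 in shDap5 input) and Psmb7 (102 to 110 against 89.6 to 128) overlapped between the arms.

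Nlrc5 encodes the NLR-family coactivator of class I genes. It stood at 86.2, 90.2 and 84.1 CPM in NSi input and at 36.8, 62.3 and 36.3 in shDap5 input. No shDap5 input reached a control, although replicate 2 lay much nearer to them than the other two. Nlrc5 fell by 0.94 on the log2 scale (SE 0.203, edgeR adjusted p = 0.00729), a call that was lost without shDap5 replicate 1 (adjusted p = 0.0986) or shDap5 replicate 3 (0.0727). Without shDap5 input replicate 2 its change was −1.25 (edgeR adjusted p = 0.000437). On light polysomes it stood at 32, 45.6 and 46.1 CPM in NSi and at 24.9, 26 and 25.4 in shDap5 (log2 change −0.70, SE 0.204, edgeR adjusted p = 0.0707). On heavy polysomes it stood at 21.1, 23.5 and 32.3 CPM in NSi and at 16.6, 16.5 and 17.5 in shDap5 (log2 change −0.60, SE 0.204, edgeR adjusted p = 0.116). The shDap5 libraries were close together and below all controls in both polysome fractions.

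**Figure D2:**
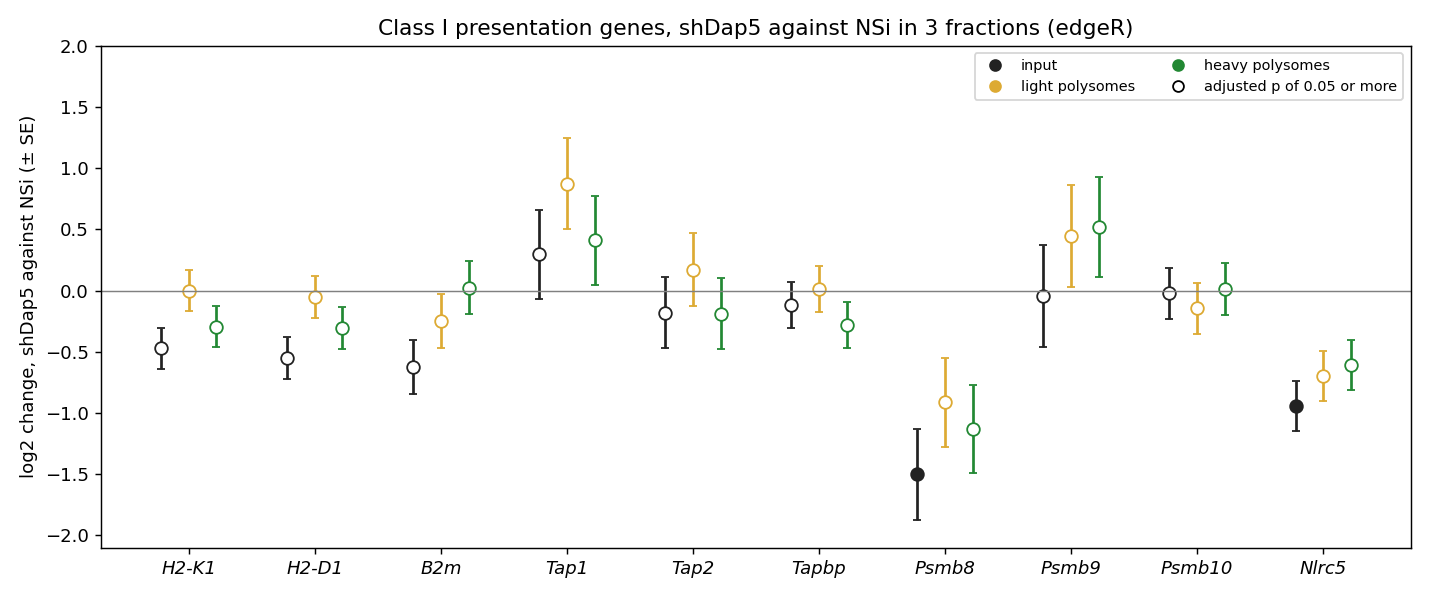
Log2 change of shDap5 against NSi (y axis, points, with bars of ± 1 SE from edgeR) for each gene (x axis) in input, light polysomes and heavy polysomes. The filled points, Psmb8 at −1.5 and Nlrc5 at −0.94 in input, had an adjusted p under 0.05; open points did not.

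The replicate numbers mattered for these calls. On light and heavy polysomes, libraries of the same number deviated together in both arms (r from 0.507 to 0.826). In input the correlation was weaker (r = 0.133, 0.319 and 0.375). These input values lay within the range seen between input and polysomes (−0.322 to 0.458), so pairing of the arms in input was not established. The comparisons were also fitted with the number as a block within each fraction, an alternative added after seeing the data. With this block, 5 members were lower in input: B2m at −0.64 (edgeR adjusted p = 0.00123), H2-D1 at −0.57 (0.00426), H2-K1 at −0.49 (0.00894), Psmb8 and Nlrc5. Of all genes, 10.5% were called lower and 22.1% in either direction under the same block. Psmb8 and Nlrc5 were also lower on light polysomes (−0.98, edgeR adjusted p = 0.00239, and −0.68, adjusted p = 0.00665; 7.5% of all genes called lower) and on heavy polysomes (−1.19, edgeR adjusted p = 0.00049, and −0.59, adjusted p = 0.0146; 8.01% of all genes). In all 9 pairings of number and fraction the shDap5 library was below its control for Psmb8 (25.1 to 62%) and for Nlrc5 (42.7 to 78.3%). Without shDap5 input replicate 2 and with no block, 4 members were called lower in input, where 6.5% of all genes were, and with the block as well the number was 6, where 12.6% of all genes were; the sixth was Psmb9 at −0.69 (edgeR adjusted p = 0.0211).

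**Figure D3:**
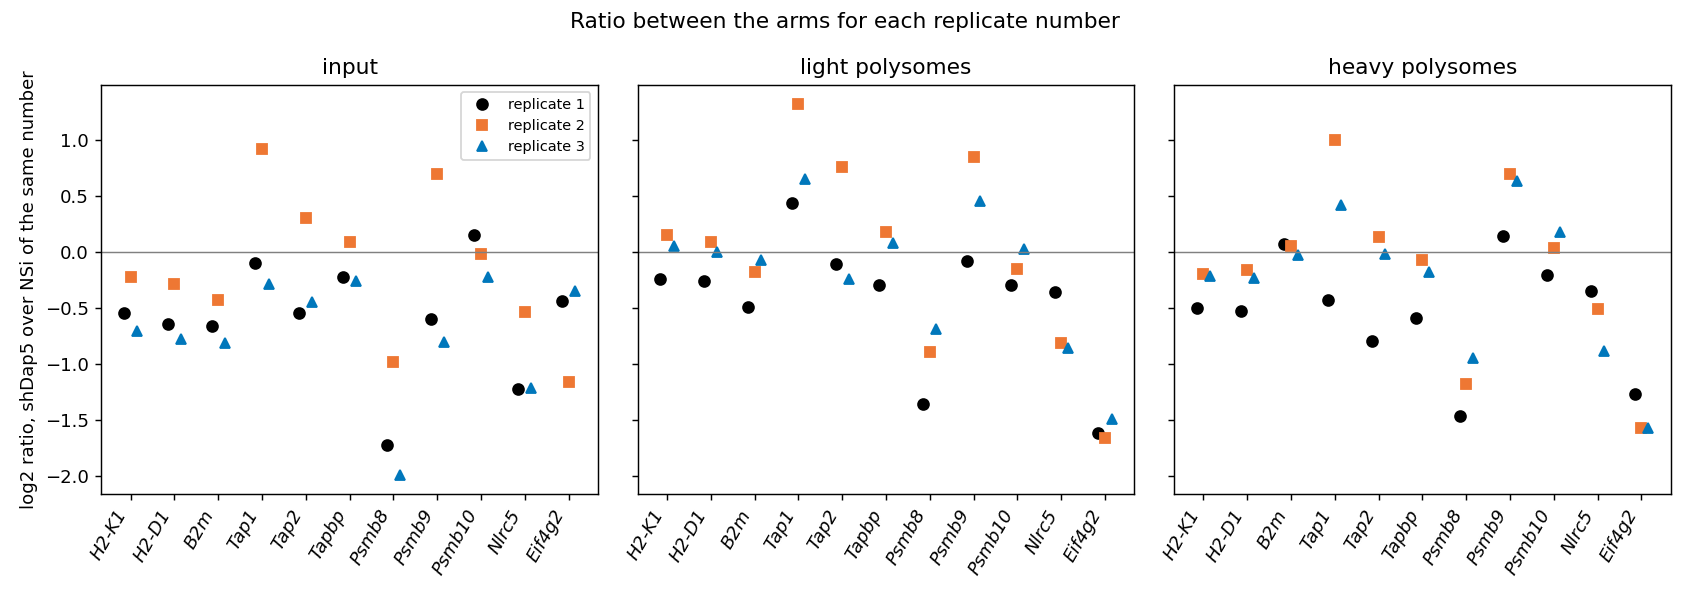
Log2 ratio of shDap5 to the NSi library of the same replicate number (y axis) for the 10 genes and Eif4g2 (x axis), in input, light and heavy polysomes, with 1 symbol per number. Psmb8 and Nlrc5 lie below 0 for all 3 numbers in every fraction, which follows from the lack of overlap between their arms. In input replicate 2 is the highest of the 3 numbers for every member except Psmb10.

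Whether polysomes changed beyond the input was tested as a difference between fractions of the arm effects, which share the libraries of the fractions they combine. For heavy over input, for light over input and for heavy over light, edgeR called 0 of 10 members and 0 of 15072 genes (0%), with every adjusted p at 1. At an unadjusted p under 0.05 there were 1, 0 and 0 members, beside 295, 320 and 181 of all genes, and DESeq2 called 0 members in each. The member was B2m, whose arm effect was 0.65 higher on heavy polysomes than in input on the log2 scale (SE 0.308, edgeR unadjusted p = 0.0499, adjusted p = 1). For the heavy chains the arm effect on light polysomes was above that in input by 0.50 for H2-D1 (SE 0.241, edgeR adjusted p = 1) and 0.47 for H2-K1 (SE 0.238, edgeR adjusted p = 1). With the block within fractions and without shDap5 input replicate 2, B2m (0.77, edgeR adjusted p = 0.012) and Psmb9 (1.19, adjusted p = 0.0134) were called for heavy relative to input, where 7.43% of all genes were. Under the same fit H2-K1 (0.61, edgeR adjusted p = 0.0378), H2-D1 (0.65, 0.0292), Psmb8 (0.88, 0.018) and Psmb9 (1.11, 0.0191) were called for light relative to input, where 8.02% of all genes were. Leaving out that library with no block, edgeR called 0 members in both comparisons (0.0587% and 0.0521% of all genes), so these calls need the block and the omission together.

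Most members had larger log2 differences between polysome fractions than between arms. In NSi cells 7 of 10 members were higher and 1 was lower on heavy than on light polysomes (edgeR; 52.6% of all genes called, 27% higher and 25.6% lower). H2-K1 was 1.80 higher on the log2 scale (SE 0.173, edgeR adjusted p = 5.03e-07), with heavy-to-light ratios of 3.63, 3.39 and 3.41 for the 3 numbers. Tapbp was 1.76 higher (SE 0.193, edgeR adjusted p = 1.63e-06), Tap2 1.75 (SE 0.302, 0.000129) and H2-D1 1.64 (SE 0.175, 1.2e-06). Smaller rises were those of Psmb8 (1.35, SE 0.364, edgeR adjusted p = 0.00488), Tap1 (1.32, SE 0.375, 0.00675) and Psmb10 (0.68, SE 0.21, 0.0112), while Psmb9 at 0.74 did not pass (SE 0.415, edgeR adjusted p = 0.143). The call of Tap1 was lost without NSi replicate 1 (adjusted p = 0.0834) and that of Psmb10 without NSi replicate 3 (0.111). The median of the 10 was 1.34, beside −0.03 for all genes tested.

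B2m and Nlrc5 were placed differently. B2m, with 357 bases the shortest coding sequence of the 10, had heavy-to-light ratios of 0.606, 0.623 and 1.24 in NSi cells, so replicate 3 alone was higher on heavy polysomes. Its log2 difference was −0.33 (SE 0.218, edgeR adjusted p = 0.214) and became −0.70 (adjusted p = 0.025) without NSi replicate 3. Nlrc5, with 5745 bases the longest coding sequence, was also lower on heavy polysomes, at ratios of 0.661, 0.515 and 0.701 and a log2 difference of −0.68 (SE 0.204, edgeR adjusted p = 0.00929; 0.119 without NSi replicate 2). The other 8 coding sequences ran from 657 bases (Psmb9) to 2172 (Tap1).

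**Figure D4:**
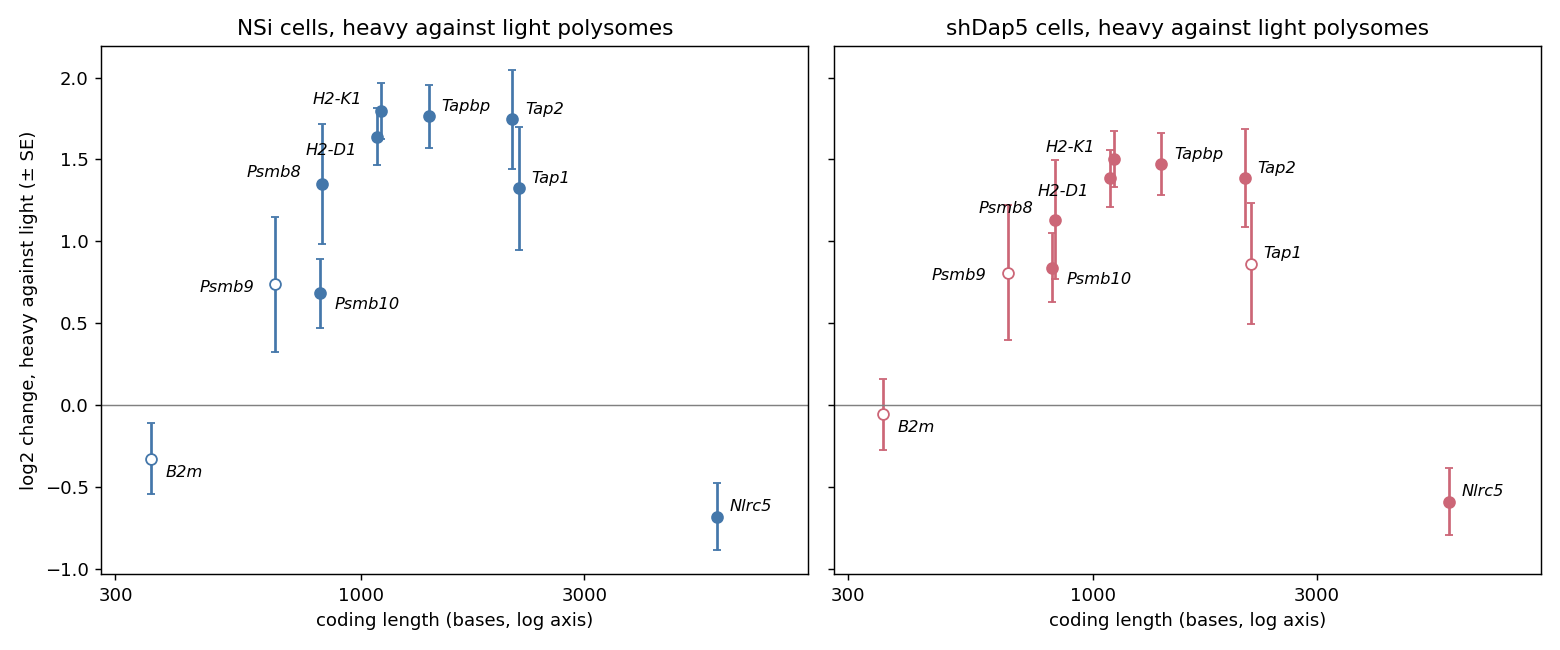
Log2 difference between heavy and light polysomes (y axis, points with ± 1 SE from edgeR) against coding length in bases (x axis, log scale) for the 10 genes, NSi cells at left and shDap5 cells at right, with open points where the adjusted p was 0.05 or more. In both arms the 6 genes from 819 bases of Psmb10 to 2106 of Tap2 are called above 0, B2m at 357 bases is not called, and Nlrc5 at 5745 bases is below 0.

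In shDap5 cells 6 members were higher and 1 was lower on heavy than on light polysomes (edgeR; 44.5% of all genes called, 24.3% higher and 20.2% lower). The order was similar: H2-K1 at 1.5 (SE 0.172), Tapbp at 1.47 (SE 0.192), H2-D1 at 1.39 (SE 0.173) and Tap2 at 1.39 (SE 0.299) led, B2m lay at −0.06 (SE 0.218, edgeR adjusted p = 0.846) and Nlrc5 at −0.59 (SE 0.205, edgeR adjusted p = 0.0262). The call of Nlrc5 was lost without shDap5 replicate 1 (edgeR adjusted p = 0.109) or shDap5 replicate 3 (0.0708), and that of Psmb8, at 1.13 (SE 0.364, 0.0182), without shDap5 replicate 1 (0.056). The heavy-to-light ratio of H2-K1 was 3.04, 2.67 and 2.84 in shDap5, below all 3 NSi ratios. That of H2-D1 was 2.69, 2.47 and 2.68 against 3.24, 2.94 and 3.16. Tap1 was also lower without overlap, at 1.97, 1.72 and 1.87 against 3.57, 2.15 and 2.2. The ratios of the other members overlapped between the arms. The share of all genes with such a separation was not computed, and edgeR called 0 of 15072 genes for heavy relative to light. The tested difference between the arms was −0.29 for H2-K1 (SE 0.238, edgeR adjusted p = 1) and −0.26 for H2-D1 (SE 0.241, edgeR adjusted p = 1), which did not pass.

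Against input, whose libraries hold all polyadenylated RNA of the lysate, the NSi heavy polysomes had 6 members higher and 1 lower (edgeR; 46.6% of all genes called, 26.4% higher and 20.2% lower). Psmb8 was 2.34 higher on the log2 scale (SE 0.376, edgeR adjusted p = 7.17e-05), Psmb10 2.13 (SE 0.218, 7.98e-07) and Psmb9 1.73 (edgeR adjusted p = 0.00282; 0.0716 without NSi replicate 3), ahead of H2-K1 and H2-D1 at 0.98 each and Tapbp at 0.81 (edgeR adjusted p = 0.000144, 0.000167 and 0.00205). Nlrc5 was 1.76 lower, from 86.8 ± 3.10 CPM in input to 25.6 ± 5.89 on heavy polysomes (SD, n = 3 libraries; edgeR adjusted p = 3.35e-06). On light polysomes 3 members were above input and 5 below (edgeR; 51.4% of all genes called, 26.7% higher and 24.7% lower): B2m, Psmb8 and Psmb10 were above, at 0.60, 0.99 and 1.45 (edgeR adjusted p = 0.0284, 0.0298 and 3.67e-05). The call of B2m was lost without NSi replicate 1 or 2 (edgeR adjusted p = 0.155 and 0.113) and that of Psmb8 without any 1 of the NSi replicates (0.0815, 0.0798 and 0.183). H2-K1, H2-D1, Tap2, Tapbp and Nlrc5 were below, at −0.81, −0.66, −1.10, −0.96 and −1.08, with edgeR adjusted p-values from 0.000322 for Nlrc5 to 0.00513 for Tap2, which became 0.0849 without NSi replicate 1. These 3 comparisons of NSi fractions share their libraries. Each library is scaled to its own total times a TMM factor (1.16 to 1.21 in NSi input, 0.82 to 0.90 on NSi heavy polysomes). A level in polysomes is therefore relative to the other genes of that library, and is neither an amount nor a plain share of its RNA.

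Per kilobase of transcript, the members spanned a wide range in NSi input. B2m led with 964 CPM per kb, followed by H2-D1 with 324, H2-K1 with 272 and Tapbp with 77.5. Psmb8 stood at 17.9, Psmb10 at 13, Tap2 at 12.9 and Nlrc5 at 11.5, and Tap1 with 4.81 and Psmb9 with 3.96 were the lowest. On NSi heavy polysomes Psmb8 stood at 90.7 and Psmb10 at 57 CPM per kb, and Nlrc5, at 3.38, was the lowest. The lengths are those of 1 GENCODE transcript per gene in build GRCm38, and the isoforms present were not measured.

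Across the 18 libraries the log2 level of H2-D1 followed the mean of the other members most closely (r = 0.911), then H2-K1 (r = 0.877) and Psmb8 (r = 0.794). B2m (r = 0.291) and Nlrc5 (r = −0.485) did not follow them. The 5 genes outside the 10 with the pattern most like the members' mean were Lgals9 (r = 0.968), Bsdc1 and Klc4 (r = 0.964 each), Flot1 (r = 0.96) and H2-T-ps (r = 0.958). These values are descriptions over libraries that share fractions, arms and replicate numbers.

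Other genes of the pathway were taken from lists of known function. Of 21 other class I heavy chain symbols sought, 15 were tested, H2-L among those not analysed here. In input 0 rose and 1 fell, beside 3.01% and 3.94% of all genes tested. The gene that fell was Cd1d1, a lipid-presenting relative, at −0.80 on the log2 scale (SE 0.233, edgeR adjusted p = 0.0455). The median of these 15 was −0.36 in input, 0.05 on light and −0.20 on heavy polysomes. On heavy polysomes Cd1d1 fell by 1.53 on the log2 scale (SE 0.241, edgeR adjusted p = 0.0016), from 5.85, 4.79 and 5.66 CPM in NSi to 1.66, 2.21 and 1.79 in shDap5. Of 12 genes of class I assembly and peptide trimming, such as Calr, Canx, Pdia3 and Erap1, 0 were called in input, light or heavy polysomes. Of 20 genes of the constitutive proteasome core and its activators, 0 were called in any of the 3 fractions, and their median in input was 0.12. Over all genes tested, 6.95%, 3.47% and 3.95% were called in input, light and heavy polysomes. In NSi cells 11 of the 15 heavy chains, 9 of the 12 assembly genes and 17 of the 20 proteasome genes were higher on heavy than on light polysomes. In the same order 2, 0 and 1 were lower, and of all genes tested 27% were higher and 25.6% lower.

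Among 28 interferon receptors, signal transducers and transcription factors of class I genes, 1 rose and 0 fell in each of the 3 fractions. Over all genes tested, 3.01%, 1.83% and 2.03% rose in input, light and heavy polysomes, so 1 of 28 lay near these shares. The gene that rose was Jak2, a kinase of the interferon-gamma receptor. Jak2 stood at 111, 98.4 and 116 CPM in NSi input and at 177, 156 and 179 in shDap5 input, with no overlap. Its log2 change was 0.66 in input (SE 0.136, edgeR adjusted p = 0.00556), 0.56 on light (edgeR adjusted p = 0.0279) and 0.58 on heavy polysomes (edgeR adjusted p = 0.0219). Irf1, an interferon-induced transcription factor, stood at 65, 63.9 and 51.7 CPM in NSi input and at 60.8, 99.6 and 53 in shDap5 input. Its shDap5 replicate 2 lay above all controls, as it did for Tap1 and Psmb9, and the other two shDap5 libraries lay within the range of the controls.

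Of the class II genes, 6 of 11 were tested, and Cd74, the invariant chain, fell in all 3 fractions. It stood at 17.7, 22.7 and 16.2 CPM in NSi input and at 2.64, 6.61 and 2.21 in shDap5 input (log2 change −2.30, edgeR adjusted p = 0.000395). Its log2 change was −1.53 on light (edgeR adjusted p = 0.0152) and −1.64 on heavy polysomes (edgeR adjusted p = 0.00793). No other class II gene passed. Of all genes tested, 3.94%, 1.64% and 1.92% fell in input, light and heavy polysomes.

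Class I genes are also expressed by immune and stromal cells, so markers of such cells were read in the same libraries. The 10 lymphocyte and NK cell markers summed to 0.273 to 0.312 CPM in NSi input and 0.164 to 0.644 in shDap5 input, 0 of 10 passed the filter, and Nkg7 and Ncr1 were at 0 in all inputs. The 8 macrophage markers summed to 56.6 to 63.9 CPM in NSi input and 36.1 to 74 in shDap5 input; C1qa was at 0 in every input and Adgre1 at no more than 0.0322 CPM. Cd68 stood at 44.3, 44.9 and 39.9 CPM in NSi input and 12.4, 50.9 and 10.6 in shDap5 input, again with replicate 2 apart. Csf1r, a receptor of macrophages, stood at 2.54, 2.11 and 2.13 CPM in NSi input and 12.2, 9.77 and 9.44 in shDap5 input, and it rose in input (log2 change 2.21, edgeR adjusted p = 6.53e-05), on light (1.66, 0.00211) and on heavy polysomes (1.60, 0.00204). The 7 dendritic cell markers summed to 8.04 to 8.91 and 5.62 to 6.41 CPM, the 6 fibroblast markers to 30.7 to 40.4 and 23.2 to 30.6, and the 6 endothelial markers to 2.57 to 3.39 and 0.9 to 1.62 in NSi and shDap5 input. Of the other macrophage markers Lyz2 fell in input (0.452 to 1.38 CPM in NSi against 0.0131 to 0.229 in shDap5). Of 3 dendritic and 5 endothelial markers tested, 1 and 2 fell in input, beside 3.94% of all genes tested (edgeR). The part of these markers in the changes of the class I genes was not tested.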

How the data were processed

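Polyadenylated RNA of 4T1 cells was sequenced in 18 libraries, grouped by the sample titles into 2 arms and 3 fractions. The deposited values are raw read counts, listed by gene symbol for each library and not normalized by the authors; the submitters' processing notes name Bowtie and the build mm9. For the aligner's version, the counting program, the annotation and the use of strand: not given in the sources used here. Counts were fitted with edgeR 4.0.16 in R 4.3.3 (robust quasi-likelihood F test, TMM, low-count filter filterByExpr at 10 counts and a total of 15), 1 mean per group over all 18 libraries, leaving 12 residual degrees of freedom. P-values were two-sided and adjusted by Benjamini-Hochberg over all 15072 genes tested; below 0.05 a gene is "called", "rose" or "fell". SEs were obtained by dividing the log2 change by the root of F. DESeq2 1.42.0, RLE scaling, no filter, replicate blocks, smaller fits and left-out replicates were alternatives. A gene with 0 counts could still have had up to 3 counts in a library; this covers counting error only. Replicates always differed by more than sampling noise (chi-square at least 8.82 for each degree of freedom).

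Same-numbered libraries of the arms correlated in their deviations from the group means within each fraction (r from 0.133 to 0.826 in 9 pairs over 10308 genes). The input pairs were the lowest, at 0.133 to 0.375. Light with heavy polysomes ran from 0.337 to 0.763, and input with polysomes from -0.322 to 0.458. Libraries of different numbers were not compared. The numbers were taken to pair arms within a fraction, from the data and not from the labels, although these values do not establish it for input. The members and the lists were chosen with earlier results of these data known. All 10 members are named in every comparison, beside Eif4g2, up to 4 genes of each list by smallest p, and the 5 genes of at least 5 mean CPM most like the members' mean. Epcam, Krt14, Pgr, Esr1, Erbb2, Psmb5, Psmb6, Psmb7, Irf1, Cd68, Csf1r, Lyz2 and the marker genes given at 0 were picked after their values were seen. The fitting was tested on simulated data. Coding lengths and shared 50-base windows are from GENCODE M21 (GRCm38) and promoters from RefSeq.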

Additional observations from a re-analysis of the deposited data

How the results depend on the processing

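Alternatives gave 1220 values for the members, of which 1151 kept their call or lack of one, 22 lost a call and 47 gained one. Of the 1151, 56 changed sign, none of them called in either fit. A direction that was called in either fit, or was beyond 1 SE in both, was reversed in 0 values. The count of members called in input was 2 in edgeR, and 5 with DESeq2, 1 without the low-count filter and 0 to 5 when a replicate was left out. With the replicate number as a block it was 3 for input over all fractions and, as alternatives added after seeing the data, 5 with the replicate block within each fraction, 4 without shDap5 input replicate 2 and 6 with both. For light polysomes the count of 0 became 1 with DESeq2, 1 with the replicate block, 2 with the block within each fraction and 0 to 1 with a replicate left out; heavy polysomes gave the same 4 numbers. With the block within fractions and without shDap5 input replicate 2, heavy relative to input gave 2 and light relative to input 4, against 0. For NSi light against input, 8 became 5 to 9 with a replicate left out. The replicate block changed no other count of members by over 1.5 times.

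The summed heavy chains, at -0.44 in input, were called at -0.46 with the block within each fraction, at -0.62 without shDap5 input replicate 2 and at -0.60 with both, and ran from -0.63 to -0.32 with a replicate left out; light relative to input became 0.62 with both. Across all genes, the block within each fraction raised the share called in input from 6.95% to 22.1%. Why the calls moved was not tested.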
